A study of Mus musculus with 16 samples.

Results

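The comparison set 4 mouse brain libraries labelled PWS-IC deleted against the 4 labelled WT that the submitters named as controls for the PWS-IC deleted brains, 8 of the 16 libraries of the series, chosen by their titles alone and described across all genes. PWS-IC stands for the imprinting centre that governs the Prader-Willi genes. The other 8 libraries hold brains of Prepl knockouts and of the WT brains kept as controls for that knockout, and they serve here as a second set of wild-type levels. The strain, age, brain region, size of the deletion, the parent that passed it on and the number of animals are not stated in the labels, which name no treatment or further allele. Each PWS-IC group held 2 libraries with reads of Y-linked genes (replicates 1 and 2) and 2 with Xist (replicates 3 and 4), so each group came from at least 2 animals. Since nothing states that the 4 libraries of a group are 4 animals, each p-value reflects only the spread among these libraries, which may be technical. In RNA of whole tissue, fewer cells of a type and less RNA per cell cannot be told apart.

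An imprinted gene is read from the chromosome of one parent only. In the Prader-Willi region of mouse chromosome 7, a group of genes is active on the paternal chromosome, and the imprinting centre beside the first exon of Snrpn keeps them active there. On the maternal chromosome the same genes are methylated and silent, whereas Ube3a is read from the maternal chromosome in neurons. Loss of the paternal genes in people causes Prader-Willi syndrome, with weak muscle tone and poor feeding in infants and overeating and hormone deficits later.

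Ndn, Snrpn, the host transcript D7Ertd715e (Snhg14), Magel2, Mkrn3, A330076H08Rik and Peg12 were all strongly lower in the deleted libraries, and Ube3a was higher. Ndn encodes necdin, a MAGE family protein of neurons. Its level was 543, 563, 550.0 and 566 CPM (reads scaled to the depth in genes of each library) in WT replicates 1 to 4 and 2.17, 5.02, 3.45 and 6.56 CPM in deleted replicates 1 to 4. The groups were far apart, and the log2 fold change was -6.94 ± 0.16 (SE) with an adjusted p of 8.25e-17. Throughout, n = 4 libraries per group, ± after a level is the SD and ± after a log2 fold change is the SE. Adjusted p is that of edgeR's quasi-likelihood test with Benjamini-Hochberg adjustment over the 13636 genes tested, and a gene is called when it is under 0.05.

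Ndn reads numbered 12148 over the 4 wild types against 81 over the 4 deleted libraries, which is 0.819% of the wild-type level after scaling for depth (exact Clopper-Pearson 95% interval 0.650% to 1.02%, counting error only). The remaining Ndn reads were uneven, with 9, 22, 12 and 38 reads in deleted replicates 1 to 4. Magel2, a MAGE protein that acts with a ubiquitin ligase on endosomes, had 543 reads in the wild types, with 8 in the deleted libraries, or 1.81% of the wild-type level (0.777% to 3.59%). Mkrn3, a ring-finger protein tied to the timing of puberty, had 505 and 15 reads, or 3.65% (2.03% to 6.08%). Peg12, a relative of the GSK-3 binding proteins, had 120 reads in the wild types, with 1 in the deleted libraries, or 1.02% (0.0257% to 5.81%). A330076H08Rik, a noncoding transcript of the interval, had 348 and 9 reads, or 3.18% (1.44% to 6.10%). Its wild-type level was itself unlike that of the Prepl wild types, at 15.9 ± 1.58 CPM against 32.95 to 67.8 CPM. All 7 were called lower in each of the 8 fits that left out 1 library. Magel2, Mkrn3, Peg12 and A330076H08Rik passed the filter on low counts (about 1.9 CPM) through the wild types alone. Their repeated calls are therefore no separate support.

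Snrpn and its downstream host transcript kept a larger share than Ndn, by intervals that do not overlap. Snrpn encodes SmN, the brain form of a spliceosome core protein. It stood at 361, 349, 339 and 327 CPM in WT 1 to 4 and 28.6, 36.02, 24.2 and 28.1 CPM in deleted 1 to 4 (log2 fold change -3.54 ± 0.11, adjusted p 9.76e-15), which left 8.55% (7.81% to 9.34%). D7Ertd715e, the long transcript from whose introns the snoRNAs of the region are processed and whose far end runs against Ube3a, stood at 278, 283, 289 and 282 CPM and 24.3, 24.4, 23.3 and 22.1 CPM (log2 fold change -3.58 ± 0.09, adjusted p 3.15e-16), which left 8.27% (7.47% to 9.14%). Every deleted library held reads of both. Snurf, which shares its transcript with Snrpn, was listed at 0 in all 8 libraries. Against the Prepl wild types the log2 fold changes were close to these, for Ndn -6.84, for Snrpn -3.59 and for D7Ertd715e -3.51.

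**Figure D1:**
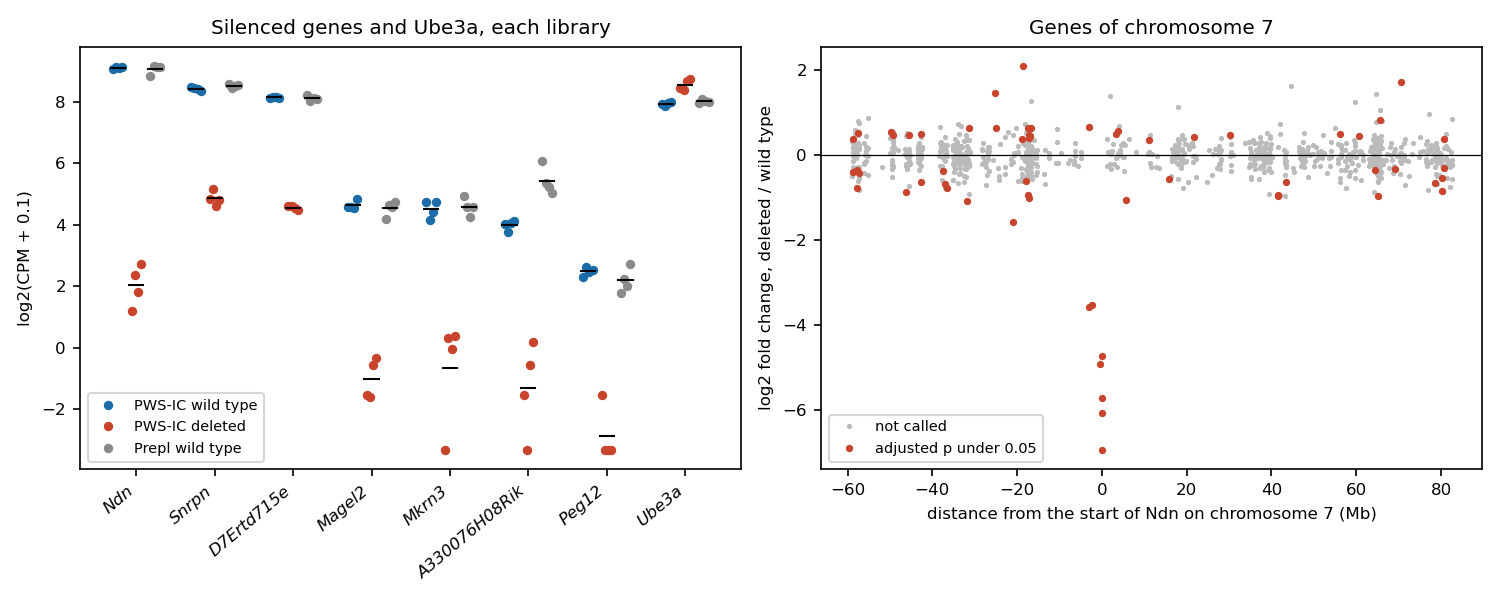
Left, level of each silenced gene and of Ube3a in each library of the PWS-IC wild types, the deleted group and the Prepl wild types, as log2(CPM + 0.1) with the mean as a bar. Ndn lies near 9 in both wild-type groups and at 1 to 3 in the deleted libraries, and Ube3a lies above its wild types in every deleted library. Right, log2 fold change of each tested gene of chromosome 7 against its distance in Mb from the start of Ndn, with called genes in red. The 7 silenced genes stand below -3 near 0 Mb and the other genes lie about 0.

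The promoters of Ndn and Snrpn are shown because the shares of reads that these genes kept have intervals that do not overlap. Both are 300-base windows, from 250 bases before to 50 after the start of transcription, from RefSeq on GRCm38.p6, written 5′ to 3′ on the strand of the gene. Capitals mark TGCGCA, a palindrome that reads the same on both strands. TGCGCA occurs in 7.75% of 32817 such windows of the genome. The windows of Magel2, Mkrn3, Peg12 and Ube3a do not hold it. The Ndn window is chr7:62348027-62348326 on the plus strand and holds 11 CG pairs. The Snrpn window, which RefSeq lists for Snurf too, is chr7:60005150-60005449 on the minus strand and holds 7 CG pairs, the median of all windows.
Ndn: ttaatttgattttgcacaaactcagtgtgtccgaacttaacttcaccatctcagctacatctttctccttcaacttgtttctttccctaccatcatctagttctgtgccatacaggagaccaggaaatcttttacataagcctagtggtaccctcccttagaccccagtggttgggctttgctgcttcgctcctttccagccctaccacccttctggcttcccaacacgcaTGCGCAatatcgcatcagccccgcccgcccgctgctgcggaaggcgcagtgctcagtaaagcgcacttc
Snrpn: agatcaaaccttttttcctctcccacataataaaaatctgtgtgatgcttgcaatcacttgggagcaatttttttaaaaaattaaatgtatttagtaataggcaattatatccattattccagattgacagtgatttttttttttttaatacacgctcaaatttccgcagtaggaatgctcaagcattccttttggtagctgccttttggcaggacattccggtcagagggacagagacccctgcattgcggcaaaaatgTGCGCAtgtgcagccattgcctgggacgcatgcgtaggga

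The 2 groups also differed in measures of the whole library, whose part in the results below was not tested. Reads in genes numbered 5252783 to 5852716 in the wild types, with 3477624 to 5795674 in the deleted libraries. Reads that aligned uniquely but outside genes made up 11.4% to 13.7% of the tabled reads in the wild types, with 17.7% to 20.1% in the deleted libraries. The Prepl wild types had 15.98% to 19.6%. Reads in noncoding or pseudogene loci rose from 2.48% ± 0.112 to 2.95% ± 0.178 of the reads in genes, and the Prepl wild types stood at 2.93% ± 0.189. At a common depth of 3477624 reads, 18690.0 ± 228 genes had a read in the wild types, 19103 ± 64.7 in the deleted libraries and 18670.0 ± 56.2 in the Prepl wild types. Each of these differences between the PWS-IC groups had p = 0.0286 in an exact two-sided permutation test (adjusted p 0.0286 over 5 measures), the smallest p that 4 against 4 libraries allow. These measures cannot be told apart from the genotype, since no library of one group reached the range of the other.

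**Figure D2:**
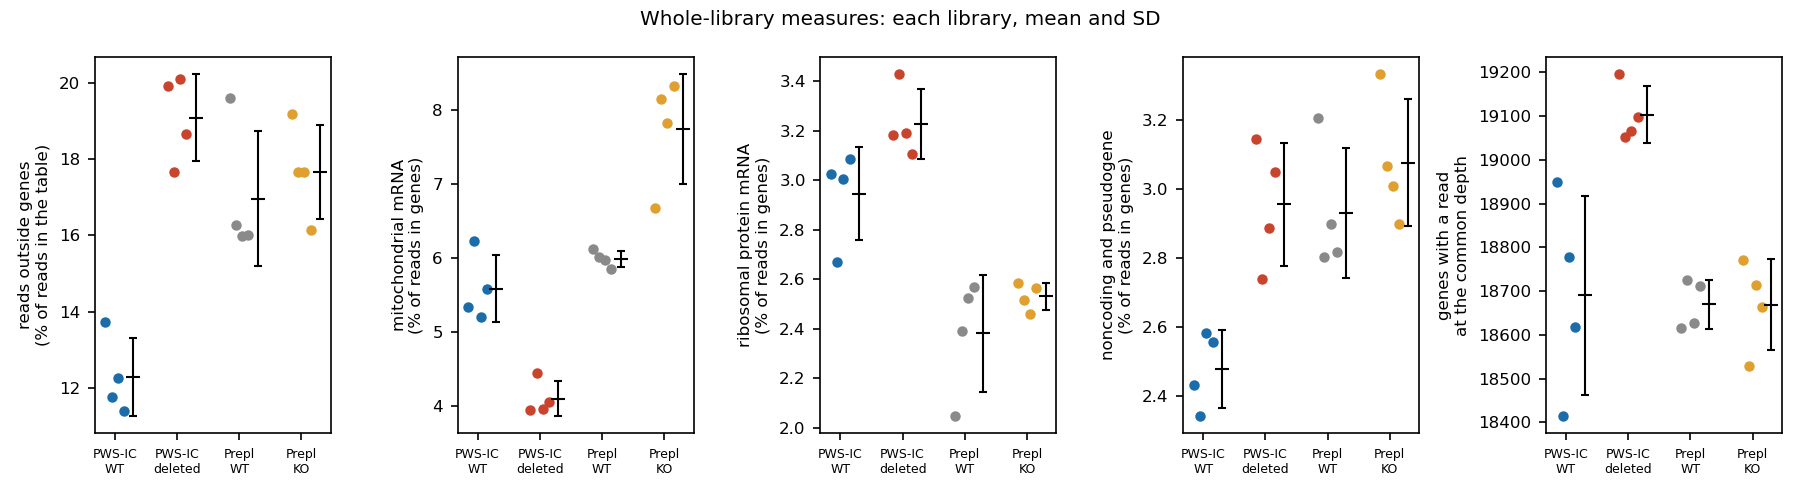
Whole-library measures in each library of the 4 groups, with mean and SD at the right of each group. From left to right: percent of tabled reads outside genes, percent of reads in genes from mitochondrial mRNAs, from ribosomal protein mRNAs and from noncoding or pseudogene loci, and genes with a read at a common depth. The PWS-IC wild types have the lowest share of reads outside genes, at 11.4% to 13.7%, and the deleted libraries the largest number of genes with a read. The axes do not start at 0.

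All 15 markers of cortical and hippocampal neurons passed the filter on low counts, as did 12 of 14 cerebellar, 14 of 20 hypothalamic and 11 of 12 striatal markers. Of 15 oligodendrocyte markers 9 passed, and Mog, a protein of mature myelin, was listed at 0 in all 8 libraries. Microglial, astrocyte, endothelial, choroid plexus, meningeal and blood genes were all present.

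Across all 13636 genes tested, 616 were called, or 4.52%, of which 404 were higher (2.96%) and 212 lower (1.55%). At an unadjusted p under 0.05 there were 2483. The median log2 fold change over all genes was -0.01. Changes were mostly small: 269 called genes moved more than 1.5-fold and 138 more than 2-fold, of which 117 were higher and 21 lower. The last 2 counts are a description, since both include genes that passed the filter on low counts through 1 group alone. Among these are low-level rises described below, and the silenced genes Magel2, Mkrn3, Peg12 and A330076H08Rik. The values of the 2 groups did not overlap for 1603 genes (11.8%), 567 of them called. In all 8 fits that left out 1 library, 253 of the 616 were called again, and without deleted replicate 1 the count was 362, without WT replicate 3 it was 394. Set against the 4 Prepl wild types in place of their own, the same deleted libraries gave 4085 called genes of 13631 (30%). Of the 404 higher genes 274 were called higher there too and 5 lower, and of the 212 lower genes 142 were called lower and 9 higher.

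Calls were unevenly spread over levels and gene classes. In the fifth of genes with the lowest average level 100 were higher and 7 lower. Of these 100, 54 were under the filter on low counts (about 1.9 CPM) in every wild type and passed it through the deleted libraries alone, so they had to differ, and the 100 are given as a description. In the fifth with the highest 182 were higher and 87 lower. Pseudogenes were called higher in 44 of 513 cases (8.58%) and noncoding RNA genes in 36 of 465 (7.74%), against 295 of 12331 protein-coding genes (2.39%). The 100 low-level rises held 25 of the 44 pseudogenes, 29 of the 36 noncoding RNA genes and 26 of the 295 protein-coding genes. The 54 that had to differ were not split by class. The class shares therefore include rises made by the filter and are given as a description too. Gm5844, a processed pseudogene, stood at 106, 103, 106 and 120.1 CPM in WT 1 to 4 and 229, 193, 184 and 216 CPM in deleted 1 to 4 (log2 fold change 0.93 ± 0.09, adjusted p 4.60e-06). Gm6368 (0.84 ± 0.12), Tubb4b-ps1 (0.81 ± 0.15) and Gm10269 (0.78 ± 0.16), also processed pseudogenes, rose by a similar log2 amount. Pseudogenes share sequence with their parent genes, so their counts are uncertain.

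**Figure D3:**
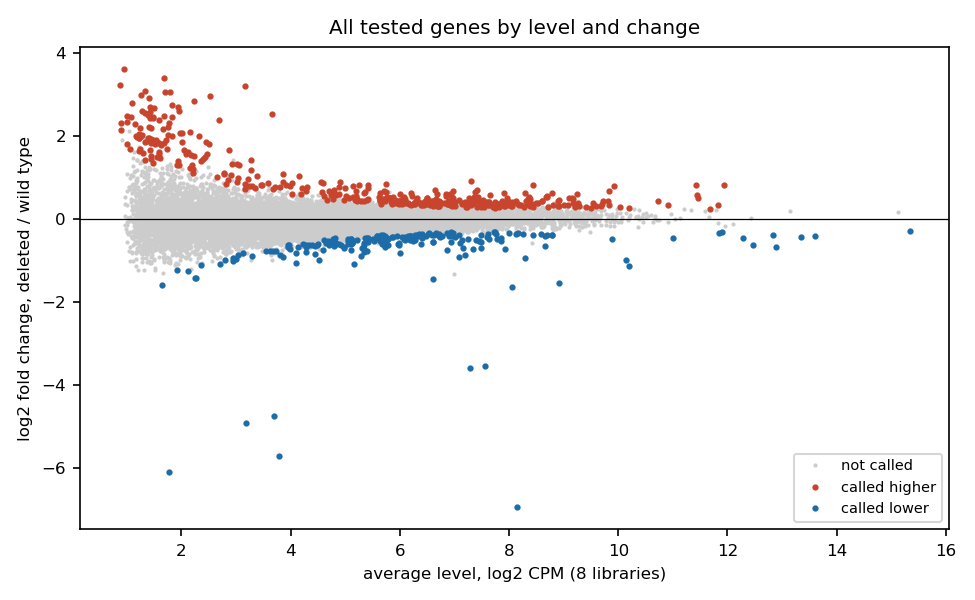
Log2 fold change (deleted over wild type) of each of the 13636 tested genes against its average level in log2 CPM, with genes called higher in red and lower in blue. The 100 low-level rises form a cloud at the upper left between about 1 and 4, with only 7 calls below 0 at the same levels.

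Among the low-level rises were genes known from tissues other than brain. Gpx5, a glutathione peroxidase of the epididymis, stood at 1.71, 0.379, 1.09 and 0.762 CPM in WT 1 to 4 and 6.26, 7.07, 3.45 and 7.76 CPM in deleted 1 to 4, and it was listed at 0 in the 4 Prepl wild types. Klk7, a protease of skin, stood at 1.88, 0.946, 0.910 and 1.90 CPM and 5.77, 6.38, 6.33 and 5.69 CPM. Acnat1, an acyltransferase of liver and kidney, stood at 0.854, 0, 0 and 0 CPM and 2.41, 2.28, 4.03 and 3.62 CPM. Mroh2a was higher too, at 6.66, 0.946, 4.37 and 2.67 CPM and 21.4, 23.5, 19.6 and 21.7 CPM. Its average of 3.66 log2 CPM lay above the limit of the low-level rises (2.61), so it is not among the 100. Gpx5, Klk7, Acnat1 and Mroh2a were chosen after their values were seen. Gpx5 and Acnat1 passed the filter through the deleted libraries alone, and Klk7 reached it in 1 wild type, so no test is given for them. WT replicate 1 was the highest wild type for the set as a whole, with the 100 genes, which were chosen for their rise, summing to 175 CPM there, 86.7 to 113 CPM in the other 3 and 431 to 499 CPM in the deleted libraries. A set defined without these 8 libraries moved the same way. The 19492 genes with no read in any Prepl library took 155, 74.4, 103 and 88.9 CPM in the wild types, with 216, 211, 243 and 198 in the deleted libraries, a ratio of 2.06 (exact two-sided permutation test, p = 0.0286). Here too the groups did not overlap, and WT replicate 1 lay closest to the deleted libraries. Whether the same reads underlie the larger share outside genes was not tested.

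Ube3a, a ubiquitin ligase whose maternal loss causes Angelman syndrome, was higher in every deleted library than in any wild type. It stood at 241, 231, 251 and 256 CPM in WT 1 to 4 and 352, 336, 408 and 425 CPM in deleted 1 to 4, a log2 fold change of 0.64 ± 0.08 (adjusted p 1.59e-04). It lies at chr7:59228750-59311536 on GRCm38. The gene model of D7Ertd715e runs on the opposite strand and overlaps the end of Ube3a, and the strand setting of the counting is not given in the sources used here, so reads of the 2 could not be separated with certainty. The other 14 tested genes beside or within the imprinted interval were not called. Among them Gabra5 stood at 90.8 ± 3.41 and 86.02 ± 7.08 CPM and Gabrg3 at 20.8 ± 5.76 and 17.2 ± 3.20 CPM, both subunits of GABA-A receptors. Herc2 and Cyfip1 had log2 fold changes of 0.09 ± 0.08 and -0.22 ± 0.11. Fan1, a DNA repair nuclease, had the highest value of the 14, 1.38 ± 0.43, from levels of 2.39, 0.946, 0.728 and 0.571 and 3.61, 2.96, 2.88 and 2.93 CPM that varied widely within the wild types. Fan1 reached the filter on low counts (about 1.9 CPM) in 1 wild type and in every deleted library. Its value is therefore given as a description. The median of the 15 was -0.07.

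Beyond the silenced genes, chromosome 7 held more falls than the other nuclear chromosomes by count, a difference that was not tested: 26 of 942 tested genes were lower (2.76%), against 166 of 12360 (1.34%). Rises numbered 27 of 942 (2.87%) and 348 of 12360 (2.82%). By distance from Ndn, 1 of 41 genes within 10 Mb was lower (2.44%), 5 of 232 at 10 to 30 Mb (2.16%) and 20 of 669 beyond 30 Mb (2.99%). Higher were 3 of the 41 within 10 Mb (7.32%), of which Ube3a is 1. Of the 26, 19 were lower against the Prepl wild types too. The 26 included Igf1r, Slc8a2, Apoe, Ntrk3, Hspbp1, Pafah1b3, Syt3, Syt5, Igf2, H19 and the beta-globins. Both beta-globins were higher, not lower, against the Prepl wild types. Pafah1b3, a subunit of a platelet-activating factor hydrolase that binds the lissencephaly protein, stood at 221 ± 19.5 CPM in wild types and 136 ± 14.02 CPM in deleted libraries (log2 fold change -0.69 ± 0.10, adjusted p 3.24e-04). Hspbp1, a co-chaperone that releases nucleotide from Hsp70, stood at 50.8 ± 7.10 CPM in wild types and 29.1 ± 1.86 CPM in deleted libraries (-0.79 ± 0.13, adjusted p 0.00104). Both groups of values lay apart, and the Prepl wild types stood at 205 CPM for Pafah1b3 and 75.5 CPM for Hspbp1. The median GC content of the transcript ends was 47.7% on chromosome 7 and 43.4% elsewhere, and 46.6% among all lower genes against 43.6% among all genes, and its part in the count was not tested. Whether the 2 groups share a strain background is not given in the sources used here. On chromosome X, 25 of 494 genes were higher (5.06%) and 4 lower (0.810%).

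Relatives of the silenced genes elsewhere in the genome were mostly not called, at 10% of those tested beside 4.52% of all genes. Of 10 tested paralogues 1 was called, Mageh1 (79.1, 86.9, 92.3 and 95.6 CPM in the wild types, 100.1, 120.1, 112 and 112 CPM in the deleted libraries, log2 fold change 0.34 ± 0.09, adjusted p 0.0358), and it passed again in 2 of the 8 leave-one-out fits. The MAGE genes Maged1 (0.05 ± 0.10), Maged2 (-0.25 ± 0.09), Magee1 (0.13 ± 0.08), Magee2 (-0.05 ± 0.28) and Ndnl2 (0.25 ± 0.14) were not called, nor were Mkrn1 (-0.13 ± 0.09), Mkrn2 (-0.08 ± 0.14) and Frat2 (0.32 ± 0.13). Snrpb, which encodes SmB and SmB', the widely expressed counterparts of SmN, stood at 91.2, 102, 87.7 and 90.6 CPM and 77.5, 87.1, 81.7 and 80.4 CPM, a log2 fold change of -0.18 ± 0.09 with an adjusted p of 0.310. Of 14 core proteins of the RNA-protein particles of the spliceosome 2 rose (14.3%, beside 2.96% higher over all genes). Snrpa1, of the U2 particle, stood at 47.8 ± 7.38 CPM in wild types and 69.3 ± 7.34 CPM in deleted libraries (0.55 ± 0.12, adjusted p 0.0103), and Snrpd1, a ring protein, at 224 ± 8.11 CPM in wild types and 283 ± 6.66 CPM in deleted libraries (0.34 ± 0.08, adjusted p 0.0125).

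None of 15 tested Magel2 partners was called. Of the 15, 14 lay below 0 (median -0.07), where 47.62% of all tested genes lay above it (median -0.01). This contrast was not tested. Summed, they stood at 1095 to 1170.0 CPM in the wild types, 963 to 1081 CPM in the deleted libraries, with no overlap, and 1066 to 1113 CPM in the Prepl wild types. Trim27, the ligase partner, had a log2 fold change of -0.29 ± 0.15, Usp7, the deubiquitinase, -0.05 ± 0.08, and Vps35, of the retromer, -0.19 ± 0.09. None of 10 proteins named as Ube3a substrates was called, among them Arc at -0.29 ± 0.43. Before adjustment 4 of the 15 and 2 of the 10 had p under 0.05.

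Among 17 genes of prohormone processing and the secretory granule 2 rose (11.8%, beside 2.96% higher over all genes). Among 19 neuropeptides none was called, a contrast that was not tested. Chgb, a granin that packs peptide hormones, stood at 129, 165, 129.8 and 144 CPM in WT 1 to 4 and 209, 197, 180.3 and 181 CPM in deleted 1 to 4 (log2 fold change 0.44 ± 0.10, adjusted p 0.0128), with no overlap. Scg2, another granin, stood at 222, 241, 226 and 256 and 275, 304, 300.5 and 295 CPM (0.32 ± 0.08, adjusted p 0.0264). Chgb was called in 6 and Scg2 in 3 of the 8 fits without a library. The convertases Pcsk1 (4.39 ± 1.003 and 3.14 ± 1.33 CPM, -0.46 ± 0.33) and Pcsk2 (77.3 ± 5.59 and 72.8 ± 5.39 CPM, -0.08 ± 0.10) were not called, and neither was any other of the 17. The median of the 19 neuropeptides was -0.05, and 1 of them had an unadjusted p under 0.05. Oxt, which encodes oxytocin, stood at 2.90, 0.946, 3.09 and 3.24 CPM in WT 1 to 4 and 1.20, 2.05, 3.45 and 4.31 CPM in deleted 1 to 4, and Avp, vasopressin, at 10.4, 10.2, 16.7 and 12.9 and 3.37, 8.44, 13.2 and 15.7 CPM. Oxt rests on few reads and both spread widely within the deleted group, so a moderate change was not detectable. Pomc (0.10 ± 0.39), Npy (-0.12 ± 0.12) and Sst (0.02 ± 0.09) were not called either, Sst with the narrowest SE of the 3. None of 17 receptors was called. Among these Htr2c, the serotonin receptor whose transcript the snoRNAs of the region are known to target, stood at 18.8, 23.3, 14.01 and 22.7 CPM and 11.8, 11.2, 14.1 and 16.9 CPM (-0.53 ± 0.19, adjusted p 0.129), with overlapping groups.

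Genes that follow neuronal activity or time of day gave 1 call, 5.56% of the clock genes beside 4.52% of all genes. None of 21 immediate early genes was called, with Fos at 0.07 ± 0.35 and Egr1 at 0.05 ± 0.18, and 1 had an unadjusted p under 0.05. Of 18 clock genes 1 rose: Tef, an output factor of the clock, at 57.8, 51.1, 49.7 and 41.9 CPM in WT 1 to 4 and 87.3, 73.2, 72.2 and 74.4 CPM in deleted 1 to 4 (0.62 ± 0.11, adjusted p 0.00313).

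**Figure D4:**
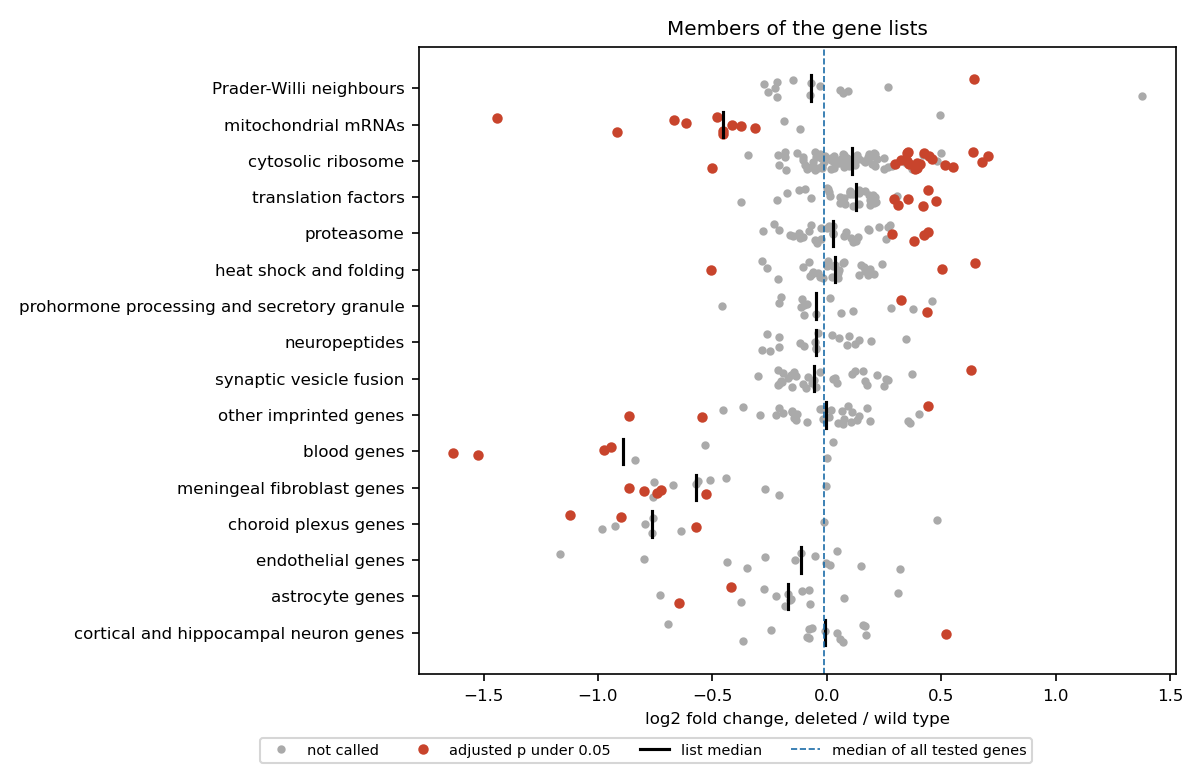
Log2 fold change (deleted over wild type) of each tested member of 16 gene lists, 1 point per gene, called genes in red, with the list median as a black bar and the median of all tested genes as a dashed line. Mitochondrial mRNAs, blood, meningeal fibroblast and choroid plexus genes have medians left of 0, and ribosomal protein genes lie mostly right of it.

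Most mRNAs made in the mitochondrion fell. Of the 13, 10 were lower and none higher (76.9% called, beside 4.52% of all genes), with a median log2 fold change of -0.45. Of the 10, 9 were called in all 8 fits without a library. They encode subunits of the respiratory chain and of ATP synthase. mt-Nd4l stood at 141, 166, 133 and 124 CPM in WT 1 to 4 and 49.3, 63.6, 41.98 and 51.2 CPM in deleted 1 to 4, a log2 fold change of -1.44 ± 0.12 (adjusted p 4.56e-07). mt-Atp8 stood at 187, 184, 161 and 172 and 82.8, 116, 72.8 and 97.5 CPM (-0.92 ± 0.12, adjusted p 1.17e-04). mt-Nd4, which shares a transcript with mt-Nd4l, stood at 8247, 10641, 8622 and 9499 and 5505, 6078, 5529 and 6071 CPM (-0.67 ± 0.08, adjusted p 4.98e-05). In all 3 the groups lay apart, and the values of mt-Nd4l and mt-Atp8 lay below those of the mRNAs on the same transcripts, mt-Nd4 and mt-Atp6 (-0.45 ± 0.07), a difference that was not tested.

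The other called members were mt-Nd1 (-0.42 ± 0.08), mt-Nd2 (-0.61 ± 0.12), mt-Nd5 (-0.48 ± 0.09), mt-Cytb (-0.37 ± 0.07), mt-Co1 (-0.45 ± 0.09) and mt-Co3 (-0.31 ± 0.08). mt-Co2 (-0.12 ± 0.07, adjusted p 0.422) and mt-Nd3 (-0.19 ± 0.08, adjusted p 0.229) were not called, and mt-Nd6, the one mRNA of the other strand, had 0.49 ± 0.17 (adjusted p 0.0999). As a share of the reads in genes, mitochondrial mRNAs were 5.59% ± 0.452 in the wild types, with 4.10% ± 0.238 in the deleted libraries (exact two-sided permutation test, p = 0.0286), with 5.99% ± 0.110 in the Prepl wild types. Both mitochondrial rRNAs fell too, mt-Rnr1 (-0.40 ± 0.08, adjusted p 0.00419) and mt-Rnr2 (-0.29 ± 0.07, adjusted p 0.0220). Against the Prepl wild types, 7 of the 10 mRNAs were again called lower and neither rRNA was, mt-Nd4 at -1.52 and mt-Nd4l at -1.75 but mt-Atp6 at 0.03 and mt-Rnr1 at 0.03 (log2 fold changes).

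Nuclear genes for the same organelle were mostly not called. Called shares were 5.41% for complex I, 7.32% for complexes II to V and 1.33% for mitochondrial ribosomal proteins, beside 4.52% of all genes. None of 26 factors of mitochondrial gene expression was called (median 0.03, with 1 at an unadjusted p under 0.05). Of 37 nuclear complex I subunits 2 rose, Ndufa5 (197 ± 24.3 and 267 ± 22.4 CPM, log2 fold change 0.45 ± 0.10) and Ndufb10 (80.6 ± 4.43 and 108 ± 10.002 CPM, 0.43 ± 0.09). Of 41 subunits of complexes II to V 2 rose, Uqcrfs1 (0.36 ± 0.09) and Atp5k (0.34 ± 0.09), and 1 fell, Cox8a (-0.36 ± 0.10), each called in at most 4 of the 8 fits without a library. Of 75 mitochondrial ribosomal proteins Mrpl34 alone was called, lower at -0.51 ± 0.10. In metabolism, Eno1, the widespread enolase, rose from 19.3, 14.2, 15.5 and 15.8 CPM to 27.9, 32.4, 36.8 and 24.7 CPM (0.90 ± 0.16, adjusted p 0.00212). Pkm, pyruvate kinase, fell from 263, 325, 253 and 244 CPM to 198, 211, 161 and 182 CPM (-0.52 ± 0.11, adjusted p 0.00789). They were the 2 calls among 21 glycolytic genes (9.52%). Pdhb, of the pyruvate dehydrogenase complex, fell (-0.40 ± 0.09) and Mpc2, of the mitochondrial pyruvate carrier, rose (0.37 ± 0.11, adjusted p 0.0495). These were the 2 calls among 24 genes of pyruvate entry and the citric acid cycle (8.33%). Mpc2 was called in 3 of the 8 fits without a library.

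Of 85 cytosolic ribosomal proteins 18 were higher and 1 lower (22.4% called, beside 4.52% of all genes), with a median log2 fold change of 0.11 against -0.01 over all genes, and 11 of the 19 were called in all 8 fits without a library. Rpl4 stood at 759, 569, 664 and 793 CPM in WT 1 to 4 and 1146, 1144, 1044 and 1098 CPM in deleted 1 to 4 (0.68 ± 0.09, adjusted p 2.09e-04). Rps23 stood at 122, 93.5, 143 and 162 and 225, 203, 224 and 190.1 CPM (0.70 ± 0.12) and Rpl21 at 92.8 ± 10.6 and 135 ± 11.3 CPM (0.55 ± 0.10). All 19 were called in the same direction against the Prepl wild types. In the Prepl knockout comparison the median of the list was 0.11 as well, with none of 84 called. Ribosomal protein genes have many processed pseudogenes, so reads of the 2 kinds may be split. Their summed share of reads in genes was 2.95% ± 0.188 in the wild types, with 3.23% ± 0.139 in the deleted libraries (exact two-sided permutation test, p = 0.0286), and 2.38% ± 0.236 in the Prepl wild types.

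Of 38 translation factors 6 rose and none fell (15.8% called, beside 4.52% of all genes), with a median of 0.13. Eif3a, the large scaffold of initiation factor 3, stood at 364, 373, 431 and 439 CPM and 587, 486, 564 and 587 CPM (0.48 ± 0.09, adjusted p 0.00264), while Eif5b (0.44 ± 0.10), Eif3d (0.35 ± 0.09) and Eef1b2 (0.31 ± 0.09) rose as well, and 1 of the 6 was called in all 8 fits without a library. None of 37 tRNA synthetases was called (median 0.11, 3 at an unadjusted p under 0.05). Of 33 chaperone genes 2 rose and 1 fell (9.09% called). Hsp90ab1, the constitutive cytosolic Hsp90, stood at 2355, 2181, 2418 and 2353 CPM in WT 1 to 4 and 3330.4, 3168, 3301 and 3311 CPM in deleted 1 to 4 (0.50 ± 0.06, adjusted p 1.15e-04). Hspe1, the mitochondrial co-chaperonin, stood at 124, 114, 126 and 153 and 209, 204, 192 and 199 CPM (0.65 ± 0.09, adjusted p 3.47e-04). Fkbp4, an Hsp90 co-chaperone, fell from 142, 179, 180.0 and 158 to 115, 121, 112 and 114 CPM (-0.51 ± 0.09, adjusted p 0.00258). All 3 held in each fit without a library and against the Prepl wild types.

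Of 36 proteasome subunits 4 rose and none fell (11.1% called, beside 4.52% of all genes). They were Psmc5 (0.44 ± 0.08), Psmb7 (0.43 ± 0.09), Psma4 (0.38 ± 0.10) and Psmc1 (0.28 ± 0.07). Psmc5 and Psmb7 were called in all 8 fits without a library, Psma4 in 3 and Psmc1 in 1. Pomp, the maturation factor of the proteasome, chosen after its values were seen, stood at 327, 328, 329 and 360.0 and 505, 508, 477 and 482 CPM (0.56 ± 0.08, adjusted p 2.26e-04). Of 22 genes of endoplasmic reticulum stress Atf4, the translation-controlled stress factor, was the one called, higher at 0.43 ± 0.10 (adjusted p 0.0158). Of 27 antioxidant and metal-binding genes Gsr, glutathione reductase, was the one called, from 39.3 ± 2.91 to 28.03 ± 2.74 CPM (-0.49 ± 0.12), where the Prepl wild types stood at 27.9 CPM. Called shares were 4.55% for endoplasmic reticulum stress and 3.7% for the antioxidant list. Atf4 was called in 5 and Gsr in 2 of the 8 fits without a library. None of 22 cholesterol synthesis genes was called, and 2 had an unadjusted p under 0.05.

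Tra2b, a splicing activator, stood at 237, 309, 207 and 234 CPM in WT 1 to 4 and 551, 484, 365 and 353 CPM in deleted 1 to 4 (0.84 ± 0.14, adjusted p 0.00167). Nelfcd, of the complex that pauses RNA polymerase II, stood at 25.97, 26.1, 27.5 and 30.5 and 50.5, 48.1, 45.1 and 50.04 CPM (0.83 ± 0.11). In both the groups lay apart. Their levels in the Prepl wild types were not alike: Nelfcd (46.4 to 60.3 CPM) overlapped the deleted libraries there, and Tra2b (178 to 249.7 CPM) overlapped the PWS-IC wild types.

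Malat1, a long RNA of nuclear speckles, stood at 1831, 2221, 2127 and 1690.3 CPM in WT 1 to 4 and 4784, 2495, 2889.9 and 3695 CPM in deleted 1 to 4 (0.82 ± 0.14, adjusted p 0.00212). Meg3, a maternally expressed long RNA of chromosome 12, stood at 2486, 2872, 2991 and 2874 and 5882, 3837, 4589.9 and 5530.3 CPM (0.83 ± 0.10, adjusted p 7.37e-05). Deleted replicate 1 was the highest in both, and the Prepl wild types reached 3432 to 4699 CPM for Malat1 and 6092 to 9548 CPM for Meg3, which overlaps the deleted libraries for Malat1 and lies above them for Meg3. They were the 2 calls among 16 nuclear and host noncoding RNAs (12.5%, beside 4.52% of all genes), whose median was 0.13. Neat1, the scaffold of paraspeckles, had -0.69 ± 0.29 (adjusted p 0.193). Named families, chosen after values were seen, are given beside the 4.52% called over all genes. The calls were 3 higher and 1 lower of 39 Rbm genes, 2 higher of 34 Ddx helicases, 1 higher of 11 Srsf genes and none of 20 Hnrnp genes. Rbm25 (484 ± 35.1 and 731 ± 105 CPM, 0.60 ± 0.09), a splicing regulator, Ddx46 (0.59 ± 0.10), a helicase of the U2 particle, Ppig (0.54 ± 0.08), a speckle cyclophilin, Ccar1 (0.58 ± 0.10), Pnisr (0.53 ± 0.10), Scaf1 (0.64 ± 0.12), Fip1l1 (0.45 ± 0.08), of polyadenylation, and Drosha (0.52 ± 0.09), the nuclear miRNA nuclease, were higher and were likewise picked from the calls.

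Of the small RNAs that the counts hold, Snora30 fell from 29.3 ± 2.59 to 14.6 ± 3.53 CPM (-0.98 ± 0.16) and Rny1 from 21.1 ± 3.79 to 11.7 ± 2.89 CPM (-0.82 ± 0.19). Both lack a poly(A) tail, and both stood lower still in the Prepl wild types, at 1.49 and 3.31 CPM. Other rises named by size were Tmem17, of the ciliary transition zone (14.2, 11.5, 9.28 and 11.04 and 16.8, 29.4, 23.3 and 24.7 CPM, 1.04 ± 0.19), Cdk10 (0.79 ± 0.17), a cyclin-dependent kinase, and the unplaced transcripts RP23-14P23.9 (0.88 ± 0.17) and RP23-184I13.7 (0.87 ± 0.20).

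**Figure D5:**
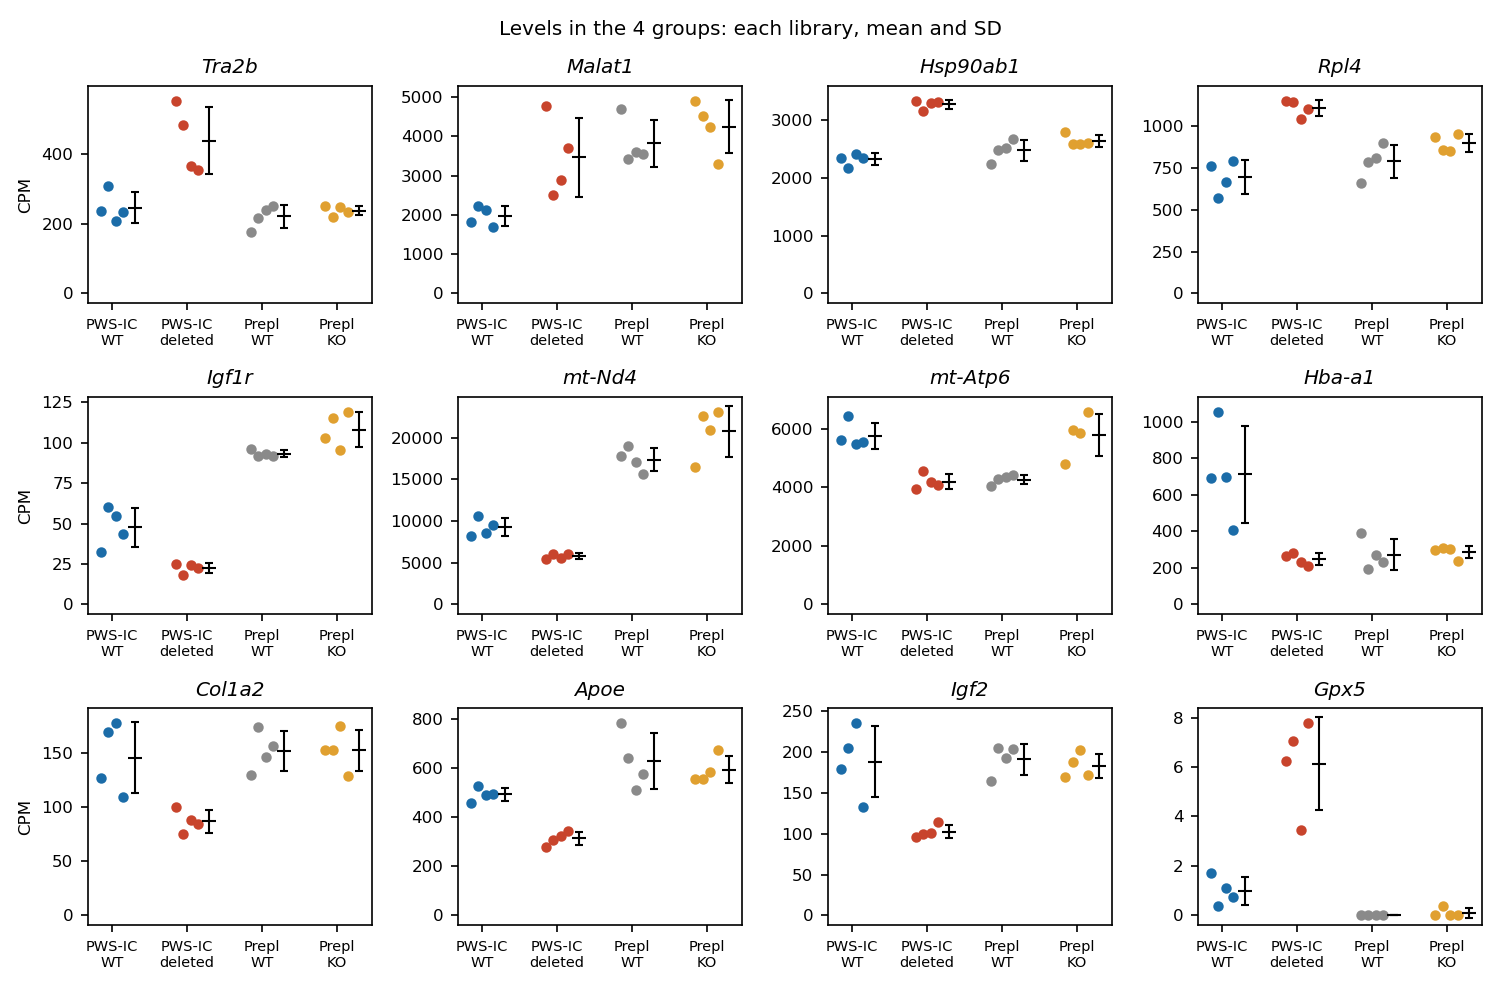
CPM of 12 genes in each library of the 4 groups, with mean and SD at the right of each group, all axes including 0. Malat1 in the deleted libraries overlaps the Prepl wild types, whereas Tra2b, Hsp90ab1 and Rpl4 lie above and Igf1r, Apoe and Igf2 below every library of both wild-type groups. Gpx5 is near 0 in both Prepl groups.

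Igf1r, the receptor of the insulin-like growth factors, stood at 32.6, 60.01, 54.4 and 43.4 CPM in WT 1 to 4 and 25.3, 18.2, 24.4 and 22.3 CPM in deleted 1 to 4 (-1.07 ± 0.17, adjusted p 9.02e-04). It lies at chr7:67952827-68233668, on the chromosome of the deletion. The groups lay apart, and the Prepl wild types stood higher still at 93.1 ± 2.20 CPM, so the wild-type groups themselves differed. Igf2, a ligand that is imprinted and made in meninges and choroid plexus, stood at 179, 205, 235 and 133 and 95.999, 99.2, 101 and 114 CPM (-0.86 ± 0.13, adjusted p 4.91e-04), and the Prepl wild types at 191 ± 19.003 CPM. Igf1 (0.00 ± 0.13) and Igf2r (-0.29 ± 0.12) were not called. Of 34 other imprinted genes 1 rose and 2 fell (8.82% called, beside 4.52% of all genes), with a median of 0.00. The rise was Zrsr1, a splicing factor gene read from the paternal copy (72.3, 71.4, 77.2 and 80.5 and 100.1, 103, 101 and 104 CPM, 0.44 ± 0.08), and the falls were Igf2 and its neighbour H19 (138, 161, 179 and 96.3 and 99.4, 108, 83.7 and 100.4 CPM, -0.55 ± 0.14, adjusted p 0.0283), the latter with overlapping groups.

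Genes of blood, meninges and choroid plexus gave 12 falls and no rise. The falls were 50%, 33.3% and 27.3% of the tested genes of each list, beside 1.55% over all genes. Of 8 blood genes 4 fell, the globins Hba-a1, Hba-a2, Hbb-bs and Hbb-bt. Hba-a1 stood at 693, 1050.4, 698 and 405 CPM in WT 1 to 4 and 263, 284, 230.0 and 211 CPM in deleted 1 to 4 (-1.52 ± 0.19, adjusted p 7.37e-05), with WT replicate 2 the highest. Hba-a2 had -1.63 ± 0.20, Hbb-bs -0.97 ± 0.16 and Hbb-bt -0.94 ± 0.16, and the beta-globin ranges overlapped between the groups. The summed blood list was 2022 to 4224 CPM in the wild types, 1398 to 1899 CPM in the deleted libraries and 852 to 1362 CPM in the Prepl wild types. Hba-a2, which is nearly identical to Hba-a1, stood at 25.9 CPM in the Prepl wild types, so the ratio of the 2 differs between the wild-type groups.

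Of 15 meningeal fibroblast genes 5 fell and none rose, and all 15 lay below 0 (median -0.57, against -0.01 over all genes). Col1a2, a fibrillar collagen chain, stood at 126, 169, 177 and 109 CPM in WT 1 to 4 and 99.6, 74.5, 87.99 and 84.5 CPM in deleted 1 to 4 (-0.74 ± 0.13, adjusted p 0.00258). Col3a1 (-0.80 ± 0.13) and Dcn (-0.73 ± 0.15), decorin, fell by a similar amount, and Igf2 counts in this list as well. The list summed to 795 to 1550.0 CPM in the wild types, 719 to 818 CPM in the deleted libraries and 1301 to 1463 CPM in the Prepl wild types, and WT replicate 4 was the lowest wild type for Col1a2, Col3a1, Dcn and Igf2. Of 11 tested choroid plexus genes 3 fell (median -0.76). Ttr, transthyretin, stood at 1681, 2055, 1297 and 1404 CPM and 521, 492, 334 and 1607 CPM (-1.12 ± 0.31, adjusted p 0.0400), where deleted replicate 4 lay within the wild types. Sostdc1 (-0.90 ± 0.22) and Enpp2 (-0.57 ± 0.14) were called too, none of the 3 in all 8 fits without a library. The choroid plexus list summed to 1467 to 2252 CPM in the wild types, 454 to 1796 CPM in the deleted libraries and 966 to 1525 CPM in the Prepl wild types. Of its 3 calls, 1 was called lower against the Prepl wild types too. No member of the 3 lists was at 0 in either group. The part of meningeal cells in the fall of Igf2 and the collagens was not tested.

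Calls among glial lists were all lower, 2 of 15 astrocyte (13.3%), 1 of 11 microglial (9.09%) and 1 of 9 oligodendrocyte genes (11.1%), beside 1.55% lower over all genes. Apoe was called in all 8 fits without a library, Sox9 in 5, Cnp in 3 and Csf1r in 2. Csf1r was not called lower against the Prepl wild types. Apoe, the lipid carrier made mostly by astrocytes, fell from 456, 525, 491 and 495 CPM to 279.6, 306, 322 and 343 CPM (-0.65 ± 0.08, adjusted p 1.12e-04) and stood at 627 ± 115 CPM in the Prepl wild types. Sox9 (-0.42 ± 0.10), an astrocyte factor, was the other call among 15 astrocyte genes, whose median was -0.17. Csf1r (-0.63 ± 0.17) was the one call among 11 microglial genes, Cnp (-0.56 ± 0.14) among 9 oligodendrocyte genes, and none of 13 endothelial genes was called, with 2 at an unadjusted p under 0.05. The summed endothelial list was 181 to 190.4 CPM in the wild types, with 168 to 174 CPM in the deleted libraries. B2m, the light chain of class I antigens, chosen after its values were seen, stood at 76.2, 77.2, 76.6 and 79.01 CPM and 54.9, 52.4, 53.8 and 60.7 CPM (-0.47 ± 0.09), and at 47.6 ± 2.94 CPM in the Prepl wild types. Dab2 (-0.79 ± 0.18), an endocytic adaptor, and Ptk7 (-1.04 ± 0.22), a Wnt co-receptor, were among the largest falls by size, as were Fam136a (-0.84 ± 0.18) and Acap3 (-0.75 ± 0.12).

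In neurons, few of the listed genes were called. Called shares were 3.03% (synaptic vesicle fusion), 6.67% (cortical and hippocampal), 9.09% (striatal) and 2.08% (potassium channels), beside 4.52% of all genes. Of 33 genes of synaptic vesicle fusion Vamp2, the vesicle SNARE, rose from 334, 316, 329 and 409 CPM to 511, 545, 513 and 566 CPM (0.63 ± 0.09, adjusted p 2.44e-04). Neurod2, a transcription factor of cortical neurons, rose from 404, 445, 462 and 490.2 CPM to 694, 604, 663 and 611 CPM (0.52 ± 0.08, adjusted p 9.11e-04), 1 of 15 genes of its list. Ppp1r1b, which encodes the striatal DARPP-32, fell (25.7 ± 6.17 to 16.5 ± 1.44 CPM, -0.64 ± 0.17, adjusted p 0.0366). It was called in 2 of the 8 fits without a library. Kcna6 (0.43 ± 0.11, adjusted p 0.0357) was the one call among 48 potassium channels, called in 1 of the 8 fits. None of 27 ionotropic glutamate and GABA-A receptor subunits, 12 cerebellar, 14 hypothalamic or 12 interneuron markers was called, of which 1, 2, 1 and 2 had an unadjusted p under 0.05.

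Outside these lists, Slc8a2, a sodium-calcium exchanger of neurons, fell from 39.6, 63.04, 48.6 and 48.4 CPM to 27.7, 24.2, 22.4 and 32.4 CPM (-0.88 ± 0.15, adjusted p 0.00177). The following were chosen after their values were seen. Ntrk3, the neurotrophin-3 receptor, stood at 32.98, 32.9, 36.2 and 36.6 CPM and 21.7, 21.2, 25.9 and 23.5 CPM (-0.58 ± 0.12), with 61.5 CPM in the Prepl wild types. The synaptotagmins Syt3 (-0.63 ± 0.16) and Syt5 (-0.36 ± 0.09) fell, 2 of 13 of their family, beside 1.55% lower over all genes. Each was called in 3 of the 8 fits without a library. Map1b, a microtubule protein of growing axons, rose from 2202, 2294, 2109 and 2276 CPM to 3775, 3178, 2944 and 3433 CPM (0.59 ± 0.08), and stood at 4114 to 4625 CPM in the Prepl wild types, where its order with the deleted libraries is reversed.

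Prepl, the gene of the other model, was not called here (27.9, 31.6, 38.6 and 35.98 and 26.9, 33.7, 34.8 and 28.3 CPM, -0.11 ± 0.13). In the Prepl knockouts its log2 fold change was -4.34. The Prepl knockouts, compared with their own wild types, gave 36 called genes of 13722 (0.262%), 26 higher (0.189%) and 10 lower (0.0729%). Of 13237 genes tested in both comparisons, 536 were called in the PWS-IC comparison and 34 in the other, and 8 in both, which is 1.49% of the first and 23.5% of the second. The 2 comparisons share no library. All 4 Prepl knockouts had reads of Y-linked genes, as did 1 of their 4 wild types, while the other 3 had Xist. With a term for sex, added after seeing the data, the Prepl comparison called 6 genes, so these calls, the overlap and the directions below were not separated from sex. In 4 of the 8 the direction was opposite, mt-Atp6, mt-Co3, mt-Cytb and mt-Nd1, all lower in the deleted libraries and higher in the Prepl knockouts. For mt-Cytb the log2 fold changes were -0.37 and 0.73, for mt-Nd1 -0.42 and 0.47. Pnisr (0.53 and 0.41) and Gm26782 (0.89 and 2.32) rose in both, as did 1 transcript more, and Hba-a2 fell in both.

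A test of the difference between the 2 effects, fitted over all 16 libraries, was called for 112 of 14392 genes (0.778%), and for 235 with a term for sex, so the calls of single genes below carry the sex difference of the Prepl groups. It was called for the 7 silenced genes, for Ube3a (adjusted p 0.00204), Igf1r (5.08e-05), Apoe (0.0253), Igf2 (0.00585), Col1a2 (0.0219), Hsp90ab1 (0.0382), Eno1 (0.00585), Neurod2 (0.0163) and mt-Nd4 (2.05e-05). It was not called for Rpl4 (0.0871), Malat1 (0.143), Meg3 (0.0669), Chgb (0.0585) or Vamp2 (0.127). Of the 616 called genes of the PWS-IC comparison, 90 had a called difference between the models.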

How the data were processed

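The 8 libraries were made from mouse brain RNA with a Lexogen QuantSeq kit that reads the 3′ end of poly(A) RNA, per the labels' protocols. The deposited files hold raw read counts per gene symbol, made by the authors with HISAT2, HTSeq and mm10, per the submitters' processing notes, with the versions and the strand setting not given in the sources used here. Lines that name no gene (reads outside genes, ambiguous, not aligned or not unique) were left out of library sizes and tests, and the first of these was used as a measure.

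Genes were kept by edgeR's filterByExpr (minimum count 10, minimum total 15), scaled by TMM and tested with edgeR 4.0.16's quasi-likelihood test in R 4.3.3, group alone as the term, with Benjamini-Hochberg adjustment and a threshold of 0.05. Whole-library measures were tested with exact permutation tests in scipy 1.17.1. Alternatives were RLE factors, other filters, DESeq2 1.42.0, a replicate block, a sex term, 1 fit of 16 libraries and leaving out each library. Thinning to the smallest library, the Prepl wild types as controls and a sex term in the fits with Prepl libraries were added after seeing the data. The test was checked on simulated counts with the same spread for every gene and changes in well-read genes only. That check does not show how often small changes were missed in these libraries. All replicate pairs lay beyond sampling noise (chi-square per degree of freedom 2.43 to 7.23).

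Members and lists were chosen with earlier results of these data known. Named genes were the silenced genes, Ube3a and their paralogues, the 15 largest rises and 15 largest falls among calls whose groups did not overlap and whose log2 CPM averaged 4 or more, and up to 4 called members with the smallest p in each of 45 lists. Other genes were named after their values were seen, and a few genes that the rule covers are not reported here. Gene classes, positions and the GC content of transcript ends came from GENCODE annotation of the same genome build as the promoters. Older gene symbols were matched through RefSeq, and promoters came from RefSeq on GRCm38.p6.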

Additional observations from a re-analysis of the deposited data

Results flagged for a closer look

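In 308 groups of 4 libraries the gap of the highest or lowest value to its nearest neighbour was compared with the whole range, and 24 groups were above Dixon's critical value for 4 values. Chance gives such a gap in about 1 in 20 groups, and no cause was tested. Deleted replicate 1 stood apart for Fan1 (3.61 CPM against 2.88 to 2.96 CPM, high, gap 0.880 of the range), mt-Cytb (5922 CPM against 6364 to 6445 CPM, low, gap 0.845 of the range) and Peg12 (0.241 CPM against 0 CPM, high, gap 1 of the range). Deleted replicate 1 stood apart also for Psmb7 (184 CPM against 206 to 209.6 CPM, low, gap 0.865 of the range) and Tef (87.3 CPM against 72.2 to 74.4 CPM, high, gap 0.856 of the range). Deleted replicate 2 stood apart for Cnp (25.5 CPM against 19.01 to 19.7 CPM, high, gap 0.898 of the range), mt-Co2 (4500.0 CPM against 4050.0 to 4098 CPM, high, gap 0.893 of the range) and mt-Nd1 (10160.0 CPM against 8400.0 to 8552 CPM, high, gap 0.913 of the range). Deleted replicate 2 stood apart also for Ptk7 (12.1 CPM against 10.1 to 10.3 CPM, high, gap 0.857 of the range). Deleted replicate 4 stood apart for Neat1 (6.90 CPM against 3.37 to 3.45 CPM, high, gap 0.977 of the range) and Ttr (1607 CPM against 334 to 521 CPM, high, gap 0.853 of the range). WT replicate 1 stood apart for Acnat1 (0.854 CPM against 0 CPM, high, gap 1 of the range), mt-Co1 (2664 CPM against 2259 to 2270.0 CPM, high, gap 0.973 of the range) and mt-Rnr2 (53160.0 CPM against 42310.0 to 43650.0 CPM, high, gap 0.877 of the range). WT replicate 1 stood apart also for RP23-184I13.7 (8.54 CPM against 12.1 to 12.6 CPM, low, gap 0.888 of the range). WT replicate 2 stood apart for mt-Atp6 (6429 CPM against 5485 to 5609 CPM, high, gap 0.869 of the range), Npy (94.1 CPM against 126 to 129.8 CPM, low, gap 0.890 of the range) and Oxt (0.947 CPM against 2.90 to 3.24 CPM, low, gap 0.855 of the range). WT replicate 2 stood apart also for Psma4 (97.7 CPM against 133 to 139 CPM, low, gap 0.850 of the range) and Sostdc1 (24.04 CPM against 15.7 to 16.4 CPM, high, gap 0.921 of the range). WT replicate 3 stood apart for Egr1 (17.6 CPM against 12.9 to 13.7 CPM, high, gap 0.833 of the range) and Gm26782 (23.1 CPM against 20.2 to 20.5 CPM, high, gap 0.890 of the range). WT replicate 4 stood apart for Magel2 (28.6 CPM against 23.3 to 24.04 CPM, high, gap 0.858 of the range) and Pomp (360.0 CPM against 327 to 329 CPM, high, gap 0.944 of the range).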

How the results depend on the processing

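The number of called genes depended on the setting more than their direction did. Against 616 called genes (404 higher, 212 lower), no filter gave 945 (383 lower), the sex term 1119 (683 and 436) and 1 fit of 16 libraries 999 (621 and 378). A replicate block gave 989 (618 and 371), of which 615 were among the 616. The titles do not state that the numbers pair the samples. Same-numbered libraries correlated at -0.027, 0.189, 0.195 and 0.151, and not every library correlated best with its own number. WT 2 to 4 correlated positively with deleted libraries of the same sex and negatively with the others, and WT 1 weakly with all (-0.048 to 0.08). These values cannot exclude a pairing. Leaving out 1 library gave 362 to 653 called genes (248 to 444 higher, 114 to 209 lower), with the lower count at 114 without deleted 1, 126 without deleted 3, 130 without WT 3 and 138 without WT 4. RLE factors, DESeq2, the 1 CPM filter and thinning gave 625, 733, 660 and 485. The Prepl comparison gave 156 without a filter, 6 with a sex term and 12 to 103 without 1 library, and the difference of effects 222 without a filter, 235 with a sex term, 170 with DESeq2 and 67 to 134 without 1 library. Without 1 library the measures differed by 6.46 to 7.28 percentage points (outside genes), -1.61 to -1.27 (mitochondrial mRNA), 0.188 to 0.327 (ribosomal protein), 0.414 to 0.549 (noncoding) and 321 to 499.6 genes, where 3 against 4 libraries cannot give p under 0.0571. Against the Prepl wild types 4085 genes were called (2160 and 1925, 52.9% higher against 65.6%), and 20 of the named genes changed sign, with log2 fold changes of B2m 0.28, Gsr 0.062, Hba-a2 2.35, Hbb-bs 1.03, Hbb-bt 0.77, Herc2 -0.26, Igf1 -0.41, Malat1 -0.08, Map1b -0.33, Meg3 -0.45, mt-Atp6 0.035, mt-Co2 0.41, mt-Co3 0.24, mt-Nd3 0.42, mt-Rnr1 0.031, mt-Rnr2 0.17, Nelfcd -0.12, Rny1 1.87, RP23-184I13.7 -0.34, Snora30 3.38. Under the planned settings no named gene changed sign. Depth, at 3477624 reads in genes in the smallest library, limits genes of a few CPM, and the labels leave strand, age and animals unstated.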
